A study of Mus musculus with 7 samples.

Results

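Mitochondrial fatty acid entry is described here through 9 genes of malonyl-CoA turnover and carnitine transport: Acaca, Acacb, Mlycd, Cpt1a, Cpt1b, Cpt2, Slc25a20, Crat and Slc22a5. They were taken by symbol from the platform annotation, and each gene was read through its brightest probe set, the group of array probes that is summarised into a single value. A probe set carrying the gene's own symbol and no other was present for 8 of the 9, out of 19938 genes measured in that way. The exception was Cpt1b, whose probe set is shared with another gene and is given separately below. RNA came from the extensor digitorum longus, a fast-contracting leg muscle, of 4 wild type mice and of 3 mice labelled AMPKα1α2 double knockout, all on a C57/Bl6 and SV129 mixed background. AMPKα1 and AMPKα2 are the catalytic subunits of AMP-activated protein kinase (AMPK), encoded by Prkaa1 and Prkaa2. The series title places the comparison in a study of fatty acid use by muscle during exercise. The labels say nothing of age, sex, exercise before sampling, or how and in which cells the subunits were deleted.

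Long fatty acids cannot cross the inner mitochondrial membrane as coenzyme A esters. Carnitine palmitoyltransferase 1 on the outer membrane moves the acyl chain to carnitine, a carrier of the inner membrane swaps the acylcarnitine for free carnitine, and carnitine palmitoyltransferase 2 rebuilds the coenzyme A ester inside. Malonyl-CoA, made by acetyl-CoA carboxylase and removed by malonyl-CoA decarboxylase, inhibits the first of these steps. AMPK is known to phosphorylate and inhibit both carboxylases during exercise, a control of protein activity that an expression array does not measure.

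The arrays held values on a log2 scale, on which a difference of 1 is a doubling, with array medians between 7.501 and 7.584. Fast fibre markers were bright, as the labelled tissue would have them: the means of the 7 genes lay between 13.20 and 13.82, and their list mean ran from 13.57 to 13.64 in wild type and from 13.60 to 13.61 in knockout arrays. The targeted genes differed by -0.51 ± 0.09 (SE) for Prkaa1 and by -0.21 ± 0.07 (SE) for Prkaa2, with limma adjusted p = 0.12 and 0.39. The genotypes did not overlap for Prkaa1 and overlapped for Prkaa2. The deleted exons are not named in the labels, a probe set may lie outside them, and genotypes therefore follow the labels. Values after ± are the standard error of a difference, or the standard deviation (SD) of a group mean with its n. A difference is always knockout minus wild type.

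Transcripts for the inner membrane and matrix steps and for the muscle form of the carboxylase lay lower in knockout muscle, and so did the probe set shared by Cpt1b, the muscle form of carnitine palmitoyltransferase 1, and Gm44502. For Acacb, Cpt2, Slc25a20 and Crat every knockout array lay below every wild type array, by between 1.14-fold and 1.27-fold on average. For Acaca, Mlycd, Slc22a5 and Cpt1a the genotypes overlapped, with Cpt1a the only member whose mean was higher in the knockout. The members' differences had a median of -0.173, against -0.0049 over all 19938 genes, and 7 of the 8 lay below 0, as did 53.3% of all genes. RNA was taken from whole muscle, in which fewer cells of a type and less RNA per cell cannot be told apart.

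No member passed the test across all genes. With limma and Benjamini-Hochberg adjustment, 0 of 8 members had an adjusted p under 0.05, while 5 of 19938 genes did (0.0251%). At an unadjusted p under 0.05 there were 4 of 8 members, all lower, where 6.69% of all genes were lower at that level. Those were Acacb, Cpt2, Slc25a20 and Crat, which were also the 4 members with every knockout array under every wild type array, against 5.33% of all genes. The 8 members lay between percentiles 61.4 and 99.2 of mean level. The shares cover genes of every level and were not computed for genes as bright as the members. The smallest adjusted p among the members was 0.15, for Crat, and they ranked between 213 and 11559 by p among all genes.

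**Figure D1:**
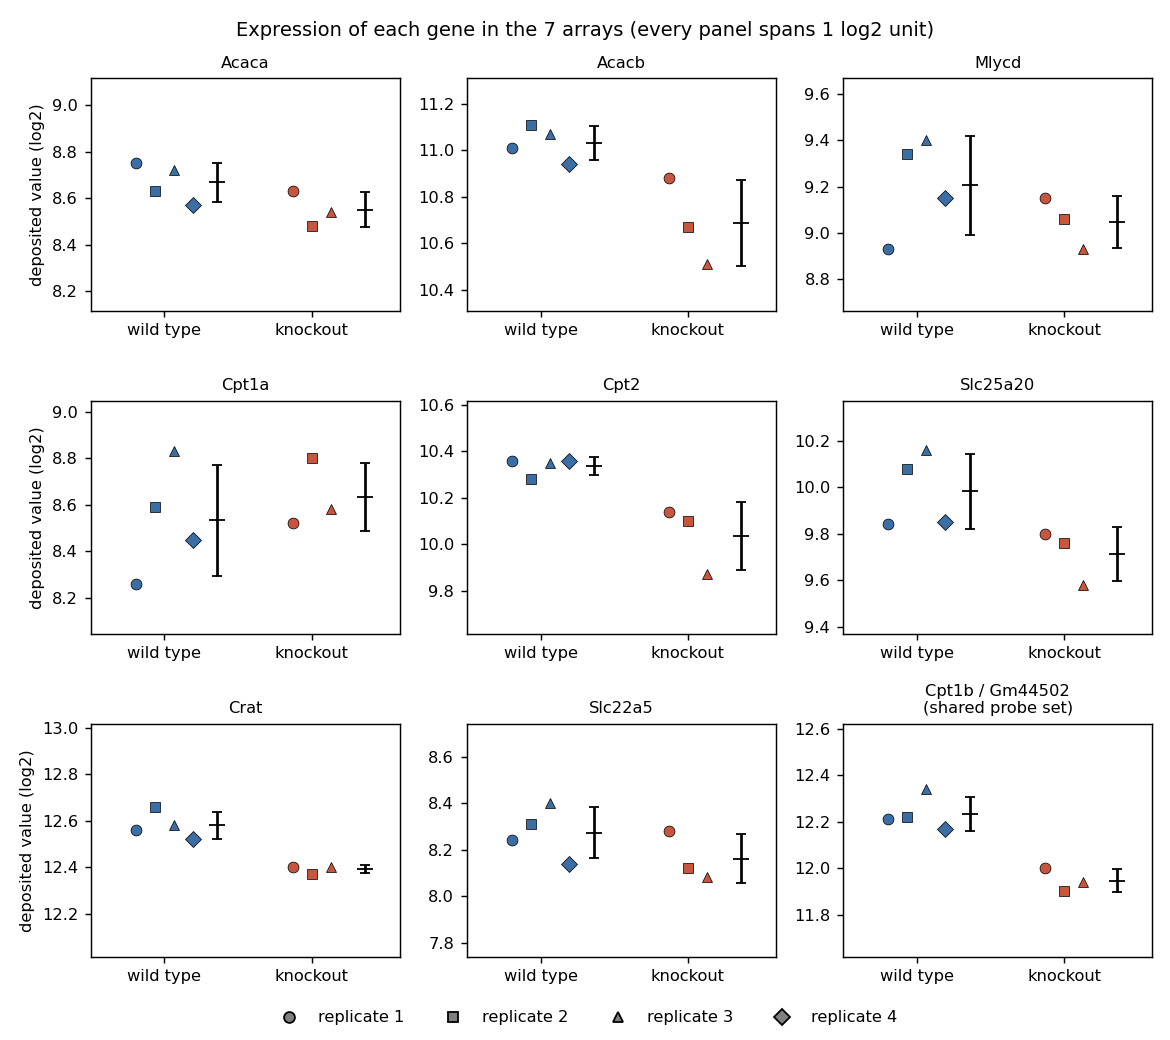
Deposited log2 values of each gene in the 4 wild type (blue) and 3 knockout (red) arrays, with marker shape for the replicate number and a bar for the group mean and its SD; each panel spans 1 log2 unit. In the panels of Acacb, Cpt2, Slc25a20, Crat and the probe set shared by Cpt1b and Gm44502 the knockout points all lie below the wild type points, while in the remaining panels the groups overlap.

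Acetyl-CoA carboxylase exists as a cytosolic form used for fatty acid synthesis, encoded by Acaca, and a form at the outer mitochondrial membrane that prevails in muscle, encoded by Acacb. Acacb (probe set 10524460) read 11.01, 11.11, 11.07 and 10.94 in the wild type arrays and 10.88, 10.67 and 10.51 in the knockout arrays, listed here and below in order of replicate number. The lowest wild type array stood 0.059 above the highest knockout array, and the knockout arrays spread over 0.369, more than the 0.169 of the wild type arrays. The means were 11.03 ± 0.07 (SD, n = 4) and 10.69 ± 0.19 (SD, n = 3), a difference of -0.35 ± 0.09, or 1.27-fold lower. Its unadjusted p of 0.0057 became an adjusted p of 0.26 in limma.

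Acaca (probe set 10394538) read 8.75, 8.63, 8.72 and 8.57 in the wild type arrays and 8.63, 8.48 and 8.54 in the knockout arrays. The wild type arrays held the highest values and the knockout arrays the lowest, with overlap between 8.57 and 8.63. The difference was -0.12 ± 0.06 (adjusted p = 0.55 in limma). A second, dimmer Acaca probe set (10379820) averaged 7.44 in both genotypes and differed by 0.00 ± 0.06, so the small difference was not seen in both. Averaged over both probe sets, Acaca differed by -0.057. Within each array, Acacb minus Acaca was between 2.27 and 2.48 in wild type and between 1.97 and 2.25 in knockout, lower in every knockout array. This compares how both genes differed and not their levels, which cannot be compared between probe sets.

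Mlycd encodes malonyl-CoA decarboxylase, which removes the inhibitor of carnitine palmitoyltransferase 1. It read 8.93, 9.34, 9.40 and 9.15 in the wild type arrays and 9.15, 9.06 and 8.93 in the knockout arrays. Wild type replicate 1 was as low as the lowest knockout array, and the wild type spread of 0.47 covered all the knockout values. The difference of -0.16 ± 0.12 (adjusted p = 0.71 in limma) had an interval from -0.44 to 0.12 at 95% confidence. It was -0.25 without wild type replicate 1, -0.09 without wild type replicate 3 and -0.10 without knockout replicate 3. Acacb minus Mlycd within an array overlapped, between 1.67 and 2.08 in wild type and between 1.58 and 1.73 in knockout.

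Carnitine palmitoyltransferase 1 is the step that malonyl-CoA inhibits, and its muscle form is encoded by Cpt1b and its liver form by Cpt1a. The only probe set for Cpt1b (10431564) also carries the symbol Gm44502, for which the RefSeq gene table lists the synonym Chkb-Cpt1b. That gene covers both Cpt1b and its neighbour Chkb, so the value belongs to both symbols and was counted for neither. The shared probe set read 12.21, 12.22, 12.34 and 12.17 in the wild type arrays and 12.00, 11.90 and 11.94 in the knockout arrays. Every knockout array lay below every wild type array, from 12.24 ± 0.07 (SD, n = 4) to 11.95 ± 0.05 (SD, n = 3), a difference of -0.29 ± 0.05 or 1.22-fold (unadjusted p = 0.00056, adjusted p = 0.11 in limma). The probe set that Gm44502 shares with Chkb instead was dim, at 7.36 in wild type and 7.28 in knockout, and differed by -0.08 ± 0.08.

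Cpt1a (probe set 10460157) read 8.26, 8.59, 8.83 and 8.45 in the wild type arrays and 8.52, 8.80 and 8.58 in the knockout arrays. All the knockout values fell inside the wild type range, which at 0.578 was the widest of the 8 members. The difference of 0.10 ± 0.14 (adjusted p = 0.84 in limma) had an interval from -0.23 to 0.43 at 95% confidence. Leaving out an array moved it between 0.008, without wild type replicate 1, and 0.201, without wild type replicate 3, and it was 0.018 without knockout replicate 2.

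Slc25a20 encodes the carnitine-acylcarnitine carrier of the inner membrane. It read 9.84, 10.08, 10.16 and 9.85 in the wild type arrays and 9.80, 9.76 and 9.58 in the knockout arrays. The wild type arrays fell into a higher and a lower pair, and the lower pair stood only 0.034 above the highest knockout array. The means were 9.98 ± 0.16 (SD, n = 4) and 9.71 ± 0.12 (SD, n = 3), a difference of -0.27 ± 0.10 or 1.20-fold (unadjusted p = 0.030, adjusted p = 0.42 in limma). The unadjusted p no longer lay under 0.05 without wild type replicate 2 (0.074) or 3 (0.064) or without knockout replicate 2 (0.054) or 3 (0.11).

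Cpt2 encodes carnitine palmitoyltransferase 2, which completes the transfer on the matrix side and is not inhibited by malonyl-CoA. It read 10.36, 10.28, 10.35 and 10.36 in the wild type arrays and 10.14, 10.10 and 9.87 in the knockout arrays. The wild type arrays lay within 0.079 of each other, and the gap to the highest knockout array was 0.144, the widest among the members. The means were 10.34 ± 0.04 (SD, n = 4) and 10.04 ± 0.15 (SD, n = 3), a difference of -0.30 ± 0.07 or 1.23-fold (unadjusted p = 0.0031, adjusted p = 0.20 in limma). Without knockout replicate 3, the lowest array, the difference was -0.22 ± 0.03. Within an array, Cpt2 minus Slc25a20 overlapped between the genotypes, at 0.36 ± 0.18 (SD, n = 4) and 0.32 ± 0.03 (SD, n = 3) for the wild type and knockout arrays.

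Crat encodes carnitine acetyltransferase, which buffers acetyl-CoA by moving acetyl groups to carnitine. It read 12.56, 12.66, 12.58 and 12.52 in the wild type arrays and 12.40, 12.37 and 12.40 in the knockout arrays. The knockout arrays were within 0.029 of each other and 0.123 or more below every wild type array. The means were 12.58 ± 0.06 (SD, n = 4) and 12.39 ± 0.02 (SD, n = 3), a difference of -0.19 ± 0.04 or 1.14-fold (unadjusted p = 0.0016, adjusted p = 0.15 in limma). Of the 8 members it varied least when an array was left out, between -0.208 and -0.164. Slc22a5 encodes the organic cation transporter that brings carnitine into the fibre. It read 8.24, 8.31, 8.40 and 8.14 in the wild type arrays and 8.28, 8.12 and 8.08 in the knockout arrays, so knockout replicate 1 lay inside the wild type range. The difference was -0.11 ± 0.07 (adjusted p = 0.67 in limma), and it was -0.17 without knockout replicate 1 and -0.07 without wild type replicate 3.

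**Figure D2:**
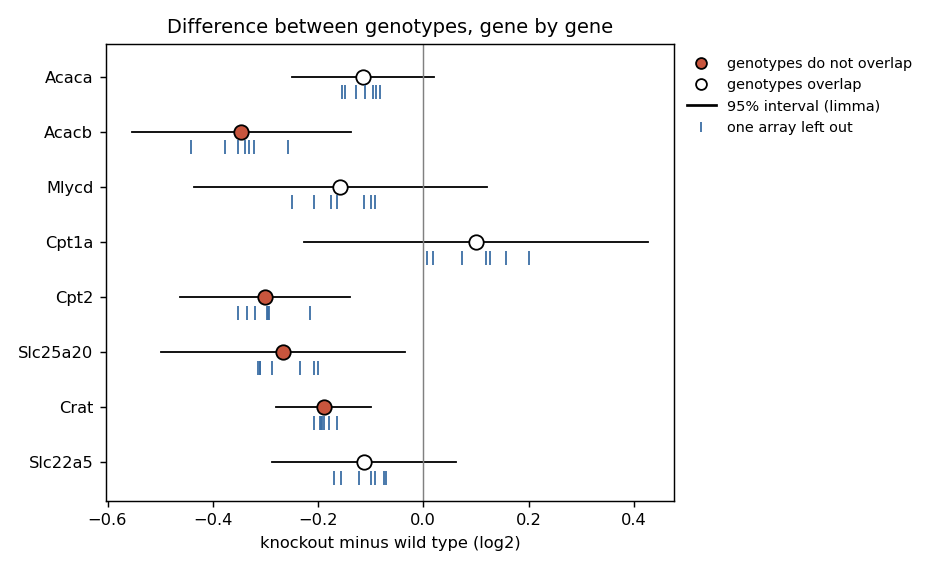
Knockout minus wild type difference of each member in log2 units, with the 95% interval from limma (black line) and the values when each array is left out in turn (blue ticks below); filled points mark genes whose genotypes do not overlap. The intervals of Acacb, Cpt2, Slc25a20 and Crat lie below 0 and those of Acaca, Mlycd, Cpt1a and Slc22a5 cross it, and all ticks keep the sign of their point.

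The knockout arrays were not alike. Knockout replicate 3 was the lowest of the 3 for 5 members and knockout replicate 1 the highest for 7. Over all genes the order was otherwise, with knockout replicate 3 lowest for 25% and knockout replicate 1 highest for 32.7%. Among the genes with every knockout array below every wild type array, those shares were 52.7% and 59.6%. Set against the wild type mean of the gene, Acacb stood at -0.15, -0.36 and -0.52 in knockout replicates 1 to 3 and Cpt2 at -0.20, -0.23 and -0.47. Crat, at -0.18, -0.21 and -0.18, did not follow that order. Knockout replicate 3 also had the highest array median, 7.584, and the lowest upper quartile, 8.802. The members' median difference was -0.190 after centring on array medians and -0.155 after quantile normalization, against -0.173 as deposited. The part of these array differences in the members' values was not otherwise tested. Without knockout replicate 3 the knockout minus wild type difference was -0.257 for Acacb, -0.201 for Slc25a20 and -0.193 for Crat. Without knockout replicate 1, Mlycd and Slc22a5 differed by -0.208 and -0.170. The number of members without overlap was then 6 in place of 4, with Acaca and Slc22a5 added and Mlycd still overlapping. The share of all genes without overlap in that setting was not computed.

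**Figure D3:**
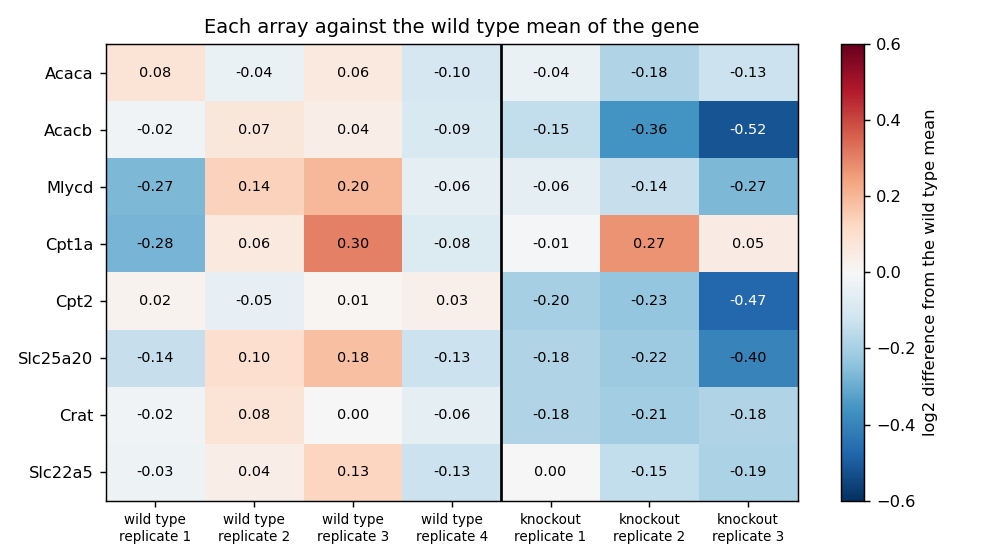
Log2 difference of each array from the wild type mean of the gene (colour and printed value), with members in rows and arrays in columns, wild type left of the black line. The lowest values are those of knockout replicate 3 for Acacb (-0.52), Cpt2 (-0.47) and Slc25a20 (-0.40), while Cpt1a is high in wild type replicate 3 (0.30) and knockout replicate 2 (0.27).

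Further genes of the pathway were read from fixed lists, chosen with earlier results of these data known. The shares of all genes beside them are therefore given as description only. The first enzymes that receive the imported acyl-CoA had a median of -0.24: of 8 genes for the opening steps of beta-oxidation all 8 were below wild type, against 53.3% of all genes, and 7 were so without overlap, against 5.33%. Acadvl, whose product opens the cycle on very long chains, read 10.55, 10.68, 10.71 and 10.60 in the wild type arrays and 10.27, 10.22 and 10.11 in the knockout arrays, a difference of -0.43 ± 0.05. Hadha, a subunit of the trifunctional protein that handles long chains, differed by -0.20 ± 0.04. In limma 0 of the 8 had an adjusted p under 0.05.

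Of the 7 AMPK subunits 4 were lower and 3 higher, with a median of -0.21, and Prkaa1 and Prkaa2 had the smallest p. These are the targeted genes, so the counts and the median do not describe the other subunits. Prkab2 differed by -0.21, Prkag1 by -0.21, Prkab1 by 0.01, Prkag2 by 0.23 and Prkag3 by 0.16 (named after their values were seen). The 10 genes that supply cytosolic acetyl-CoA and malonyl-CoA or assist the carboxylase were centred near 0, with a median of -0.04. None was without overlap, where 5.33% of all genes were lower without overlap. There Acss2, the cytosolic acetyl-CoA synthetase, differed by -0.27 ± 0.13 and Acly, the ATP citrate lyase, by -0.10 ± 0.06. Carnitine synthesis was measured by Aldh9a1, at 0.13 ± 0.07, and Bbox1, at 0.00 ± 0.03. The other carnitine carriers and acyltransferases, 6 genes, had a median of 0.03, with Slc25a29 at -0.08 ± 0.04 and Slc22a4 at 0.09 ± 0.05.

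Genes that supply acyl-CoA at the outer membrane had a median of 0.02 over 5 measured members, and Acsl1 and Acsl3 had no probe set of their own. Among them Vdac1, the main channel of the outer membrane, differed by -0.11 ± 0.03 and Acsl6 by -0.10 ± 0.07. Vdac1 was the only 1 of the 5 lower without overlap, against 5.33% of all genes. The 10 transcriptional regulators known to act on these genes had a median of -0.10, and all 10 differences were below 0, against 53.3% of all genes. Several were close to 0, such as Ppargc1b at -0.003 ± 0.079 and Ppard at -0.005 ± 0.060, both named after their values were seen. Lower without overlap was 1 of the 10, against 5.33% of all genes: Esrra, an orphan nuclear receptor of mitochondrial genes, at -0.11 ± 0.04. Rxra, the partner of the PPAR receptors, differed by -0.23 ± 0.08 with overlap. In each of these lists 0 genes had an adjusted p under 0.05 in limma. At an unadjusted limma p under 0.05 were 8 of 8 beta-oxidation genes, 3 of 10 regulators and 1 of 5 acyl-CoA supply genes. Those were all lower, where 6.69% of all genes were lower at that level. The malonyl-CoA supply and both carnitine lists held 0. Of the AMPK subunits 4, among them the targeted Prkaa1 and Prkaa2, were lower and 1 higher at that level. The share of all genes higher was not computed.

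**Figure D4:**
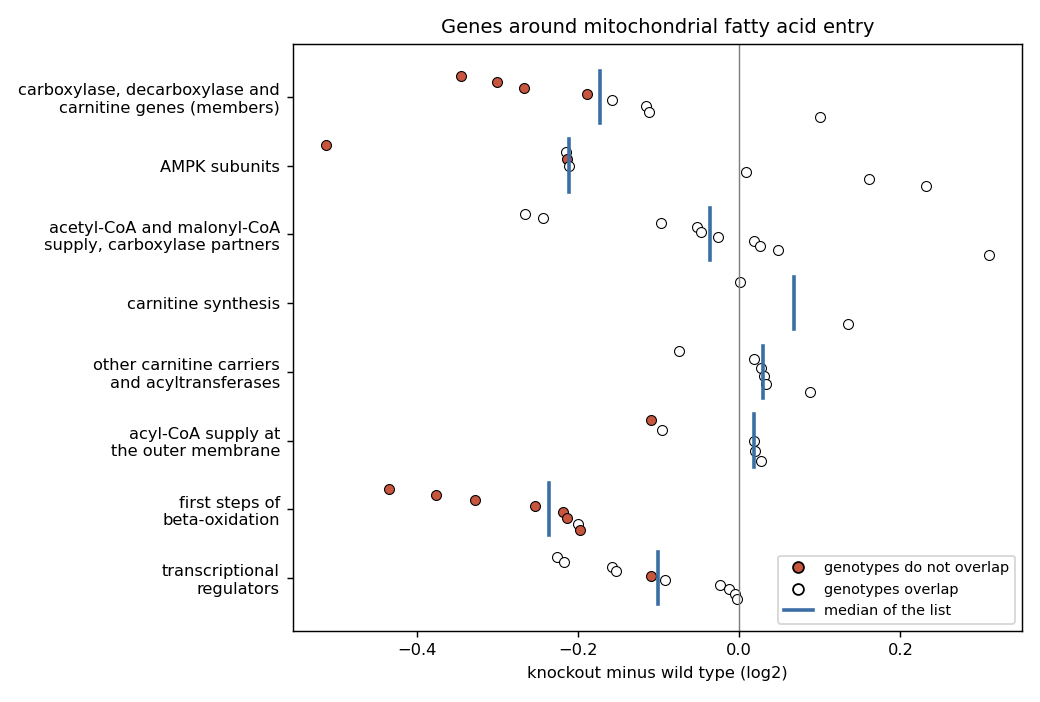
Knockout minus wild type difference in log2 units of the 8 members (top row) and of each gene in 7 fixed lists, with filled points for genes whose genotypes do not overlap and a blue bar at the median of the list. The medians of the members (-0.173), of the AMPK subunits (-0.212) and of the first steps of beta-oxidation (-0.236) lie below the medians of the carnitine synthesis (0.068) and other carnitine carrier lists (0.029). The AMPK list includes the targeted genes Prkaa1 and Prkaa2.

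Markers of other cells differed between the genotypes in the same arrays. The 6 endothelial markers were all lower, against 53.3% of all genes, and 5 were so without overlap, against 5.33%. Their list mean ran from 9.67 to 9.86 in wild type and from 9.31 to 9.47 in knockout arrays. The smallest p values were those of Cdh5 at -0.32 ± 0.06 and Emcn at -0.59 ± 0.11. The largest difference was that of Kdr at -0.67 ± 0.17 (named after its value was seen). The 6 myeloid markers were all higher without overlap, from 8.22 to 8.50 in wild type and from 8.98 to 9.11 in knockout. The share of all genes higher without overlap was not computed. Lyz2 (0.94 ± 0.05) and Tyrobp (0.63 ± 0.05) were the 2 genes of the list that passed in limma (adjusted p = 0.0088 and 0.017), against 0.0251% of all genes. Of 5 measured adipocyte markers 4 were lower and 1 higher, with a median of -0.13. Lower without overlap was 1 of the 5, against 5.33% of all genes. Their list mean ran from 7.67 to 7.94 in wild type and from 7.48 to 7.72 in knockout, with the smallest p for Adipoq at -0.34 ± 0.11 and Retn at -0.36 ± 0.14. Of 7 slow or oxidative fibre markers 6 were higher and 1, Myl2, lower at -0.24 (named after its value was seen). Their list mean ran from 8.60 to 8.82 in wild type and from 8.73 to 9.44 in knockout. Only 2 of the 7 were higher without overlap, Tnni1 at 1.00 ± 0.17 and Tnnc1 at 0.61 ± 0.18. The share of all genes higher was not computed, here or for the fibroblast markers. Of 5 fibroblast markers 4 were higher, 2 of them without overlap, and 1, Col1a1, lower at -0.28 (named after its value was seen). Their list mean ran from 10.28 to 10.73 and from 10.60 to 11.07, with the smallest p for Pdgfra at 0.53 ± 0.11 and Lum at 0.71 ± 0.30, and that of the 3 measured Schwann cell markers from 9.17 to 9.22 and from 9.15 to 9.21, with Mbp at -0.04 ± 0.03 and Sox10 at -0.05 ± 0.04. Of the fast fibre markers, Mylpf differed by 0.14 ± 0.06 and Tnnc2 by -0.07 ± 0.03. The part of these cells in the members' differences was not tested.

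Genes with the most similar profile over the 7 arrays were found for each member by the root mean square difference between profiles centred on their own means, among 9961 genes at or above the median level. For Acacb they were Fabp4, a fatty acid-binding protein of fat and capillary cells, at 0.043 and Arpc5l at 0.048, against 0.204 for the spread of Acacb about its own mean. For Cpt2 (own spread 0.171) they were Msrb3 at 0.030 and Zfp462 at 0.033, and for Slc25a20 (0.181) Hus1 at 0.042 and Hsdl2 at 0.043. For Crat (0.101) they were Snrpd3 at 0.022 and Ppp5c at 0.024, and for Acaca (0.088) Ciao3 at 0.023 and Slc25a44 at 0.025. For Mlycd (0.169) they were Ppfibp2 at 0.055 and Map4k5 at 0.059, and for Slc22a5 (0.107) Slc25a17 at 0.035 and Gpr89 at 0.037. Cpt1a (0.184) had the least similar neighbours, the fatty acid-binding protein Fabp3 at 0.089 and Rps6ka3 at 0.101. These likenesses over 7 arrays carry no test and are given as descriptions.

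Promoter windows from RefSeq, reaching from 250 bases before to 50 after an annotated transcript start on GRCm38.p6, were held for 7 members, and none for Crat or Cpt1b. Those of Cpt2 (chr4:107923540-107923839, minus strand), Slc25a20 (chr9:108661886-108662185, plus strand) and Acacb (chr5:114165268-114165567, plus strand) are printed in that order because these genes lay lower without overlap. Capitals mark GGGCGG, the GC box of Sp family factors, and AGGTCA, the core motif of nuclear receptors, each on either strand.
Cpt2: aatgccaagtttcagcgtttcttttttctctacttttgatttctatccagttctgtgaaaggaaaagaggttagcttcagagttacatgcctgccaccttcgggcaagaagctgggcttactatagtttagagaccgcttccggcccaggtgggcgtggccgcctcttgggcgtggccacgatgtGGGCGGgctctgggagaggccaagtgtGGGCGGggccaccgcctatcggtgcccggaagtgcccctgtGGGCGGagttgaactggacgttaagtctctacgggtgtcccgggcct
Slc25a20: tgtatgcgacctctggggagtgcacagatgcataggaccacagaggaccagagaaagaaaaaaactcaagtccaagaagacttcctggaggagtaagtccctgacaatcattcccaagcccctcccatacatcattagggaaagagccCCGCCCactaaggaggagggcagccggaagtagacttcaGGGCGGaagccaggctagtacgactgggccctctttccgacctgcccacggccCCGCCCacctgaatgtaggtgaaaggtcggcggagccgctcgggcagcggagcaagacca
Acacb: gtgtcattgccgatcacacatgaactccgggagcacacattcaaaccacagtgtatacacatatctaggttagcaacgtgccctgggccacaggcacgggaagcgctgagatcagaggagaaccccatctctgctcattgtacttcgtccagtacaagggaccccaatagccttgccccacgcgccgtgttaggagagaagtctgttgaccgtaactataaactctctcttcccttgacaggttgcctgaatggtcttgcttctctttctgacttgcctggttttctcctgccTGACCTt

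The GC box occurred 3 times in the Cpt2 window, 3 times in the Slc25a20 window and 0 times in that of Acacb. Windows with a GC box numbered 4 of 7 among the members (Cpt1a, Cpt2, Slc22a5 and Slc25a20), against 35.7% of all 32851 windows. AGGTCA was found in 2 of 7, the windows of Cpt1a and Acacb, against 16.3% of all windows. In the Acacb window it lies on the minus strand, 43 bases past the annotated start and near the end of the window. CCAAT, searched on both strands and not capitalised, was found in 3 of 7 (Acacb, Cpt1a and Mlycd), against 37.4%. In the printed windows these matches did not overlap. No motif of the 3 was common to the windows of Cpt2, Slc25a20 and Acacb, which says nothing of other motifs or of sequence outside the windows.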

How the data were processed

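Per the labels, RNA for the 7 arrays was extracted with TRIzol and labelled with an Ambion WT Expression Kit. The deposited values are log2 expression of 28856 probe sets; the base was inferred from their range of 4.41 to 14.65, and every fold rests on it. How probes were background-corrected, normalized and summarized is not stated in the sources used here; scaling between arrays would hide a shift of all genes. All columns were used, leaving 0 unused. Of the probe sets 21789 had 1 gene symbol in the GEO platform annotation and were tested, 1621 had several and 5446 were unnamed here. The 8 measured members matched the RefSeq gene table of GRCm38.p6 by gene identifier.

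Differences were fitted with limma 3.58.1 (lmFit, eBayes) in R 4.3.3 over the tested probe sets without covariate or filter, with Benjamini-Hochberg adjustment and a threshold of 0.05. Counts over genes use the brightest probe set of each of 19938 symbols. The method was tested on simulated data whose changes were larger than the difference of any member. That test does not show how often differences of the members' size would be called. Each array was read as a separate mouse, since the design text counts mice, and the number of arrays limits precision. Genes named are the members, Prkaa1 and Prkaa2, the 2 genes of smallest p in each list, any list gene that passed, and the 2 most similar profiles per member. Members and lists were chosen with earlier results of these data known. Alternatives were leaving out each array, a replicate block, weighting of arrays, a prior with trend and robust estimation, leaving out dim probe sets (lowest 25%), centring on array medians, quantile normalization, averaging a gene's probe sets, and testing every probe set.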

Additional observations from a re-analysis of the deposited data

Results flagged for a closer look

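Among the 8 members and the targeted genes Prkaa1 and Prkaa2, a wild type array stood apart from the other wild type arrays by Dixon's test for 2 of 10 genes, where chance gives about 1 in 20. In wild type replicate 2 Cpt2 read 10.28, against 10.35 to 10.36 in the other wild type arrays, with a gap of 0.832 of the range, just past the 95% critical value. The whole wild type range of Cpt2 was only 0.079. In the same array Prkaa2 read 12.03, against 12.28 to 12.31 in the other wild type arrays. The knockout arrays read 12.04, 11.95 and 12.04 for Prkaa2, so wild type replicate 2 lay inside their range. Groups of 3, such as the knockout arrays, were not tested.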

How the results depend on the processing

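Under 15 alternatives chosen with the design, all 120 values of the 8 members kept their direction and stayed above the adjusted threshold of 0.05, and 0 members were called in any. The lowest adjusted p was 0.085, for Acacb without knockout replicate 1, and 0.088, for Cpt2 after quantile normalization. Unadjusted p stayed under 0.05 in all 15 for Acacb, Cpt2 and Crat and in 9 for Slc25a20. The members' median was lowest without wild type replicate 1 (-0.223) and highest without wild type replicate 3 (-0.142). Members without overlap numbered 4, or 6 without knockout replicate 1. With fewer knockout arrays groups separate more easily, and the share of all genes in that setting was not computed. With the Cpt1b probe set counted, an alternative added after seeing the data, 5 of 9 members did not overlap, 0 were called and the median was -0.189. With the replicate number as a replicate block the median was -0.192 and Slc25a20 differed by -0.311 (unadjusted p = 0.054). Deviations of same-numbered arrays correlated at 0.287, 0.159 and -0.197 across genes for numbers 1 to 3. Knockout replicates 1 and 2 were closest to the wild type array of their own number. Knockout replicate 3 was closest to wild type replicate 4 (0.204). No label says that the numbers pair mice, and they were not taken to do so. Under array weights Mlycd was -0.088, Cpt1a 0.192 and Slc25a20 -0.190. The cause of these shifts was not tested.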
